A study of Mus musculus with 8 samples.

Results

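Caveolae are small flask-shaped pits of the plasma membrane, and the 8 genes described here encode the proteins that build them. They are the caveolins Cav1, Cav2 and Cav3, the cavins Cavin1, Cavin2 and Cavin3, and Ehd2 and Pacsin2, which act at the neck. They were chosen by name, as the core coat and neck proteins of the caveola, and make up 8 of the 21649 genes in the table. All 8 passed the filter on low values (at least 10 in at least 2 libraries) and were among the 18097 genes tested.

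RNA was sequenced from mouse cells sorted by fluorescence and labelled as non-vascular smooth muscle cells, in 2 libraries from lung, 3 from intestine and 3 from bladder. Every animal, in all 3 tissues, carried Cspg4-Dre, Acta2-CreERT and the reporter R26-GFP. All received tamoxifen in corn oil (20 mg/mL), injected into the peritoneum on 3 days at 0.75 mg for each 10 g of weight. Cre is driven by Acta2, the gene of smooth muscle actin, and Dre by Cspg4, the gene of the NG2 proteoglycan. Neither gene is confined to non-vascular smooth muscle. The labels name no separate animals for the libraries, and each p therefore reflects the scatter among libraries alone, part of which may be technical. Bulk RNA does not separate fewer cells of a type from less RNA per cell.

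Smooth muscle cells are among the cells richest in caveolae, which lie in rows along the cell surface, store membrane that flattens under stretch, and hold calcium channels, pumps and receptors close together. Caveolin-1 forms the coat in most cells and caveolin-3 takes its place in heart and skeletal muscle, while smooth muscle can make both. Caveolin-2 joins caveolin-1 in hetero-oligomers and needs it to reach the cell surface. Cavin-1 is the coat protein without which caveolae do not form, and cavin-2 and cavin-3 bind to it and adjust the shape and traffic of the pit.

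Values are normalized read counts. The libraries held 9.72 to 13.62 M reads as reconstructed from the values, with 12.67 and 13.62 M in lung, 12.02 to 13.19 M in intestine and 9.72 to 10.95 M in bladder. Log2 values correlated across genes at 0.967 to 0.975 between libraries of 1 tissue and at 0.790 to 0.877 between tissues (genes are not independent replicates). The lung libraries differed from each other more than others did, with a chi-square per gene of 26.7 against 5.01 to 8.34 within intestine and bladder. The smooth muscle markers Myh11 and Acta2 were read at 10378 to 10795 and 2630 to 2719 in lung, 11371 to 12454 and 2454 to 2876 in intestine, and 4423 to 6099 and 2323 to 2933 in bladder. Genes with many reads for their length moved together. There were 339 genes whose mean density reached 1 read per nt of exon. Their median log2 difference was -0.42 for lung minus bladder (interquartile range -0.57 to -0.23), -0.40 for intestine minus bladder (-0.57 to -0.20) and -0.02 between lung and intestine. Of these dense genes, 74% were lower in lung than in bladder by the test used below and 75.8% were lower in intestine than in bladder.

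Between tissues, Cav2 and Cav3 were higher in lung than in intestine and higher in intestine than in bladder. Cavin2 was higher in intestine than in bladder. Cav1, Cavin1 and Cavin3 were lower in lung and in intestine than in bladder under the deposited scaling, but Cav1 and Cavin1 were above 0 under quantile normalization. All 3 were also above 0 with the deposited scaling undone, a setting that shifts every gene: the median of all genes then moved to 0.48 for lung minus bladder and 0.45 for intestine minus bladder, against 0 and 0.06 as deposited. Relative to those medians all 3 were at -0.23 to -0.40. Undoing the scaling multiplies each library by a constant, so taking off the median returns nearly the deposited differences by construction. It is no separate check of them. Neither Ehd2 nor Pacsin2 passed in any pair. Pairs were tested with limma on log2(value + 1), and a gene was called where its p, adjusted by Benjamini-Hochberg over all genes tested, was under 0.05. For lung against bladder, 2 of the 8 genes were called higher, where 19.2% of all genes were, and 3 were called lower, where 21.8% were. For intestine against bladder, 3 were called higher beside 28.7% of all genes and 3 lower beside 23.3%. For lung against intestine, 2 were called higher beside 15.9% of all genes. None of the 8 was called lower in lung than in intestine by limma, beside 23.6% of all genes, and the count was 0 also at an unadjusted p under 0.05. With voom weights on the reconstructed reads it was 0 adjusted and 1 unadjusted. In either direction 5 of the 8 were called for lung against bladder, 6 for intestine against bladder and 2 for lung against intestine, beside 41%, 51.9% and 39.5% of all genes. The F test over the 3 tissues called 6 of the 8, beside 62.9% of all genes. Values of both tissues did not overlap for 5 genes in lung against bladder, 7 in intestine against bladder and 4 in lung against intestine, beside 58.1%, 63.4% and 58.6% of all genes. No test was made of these counts against the background.

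**Figure D1:**
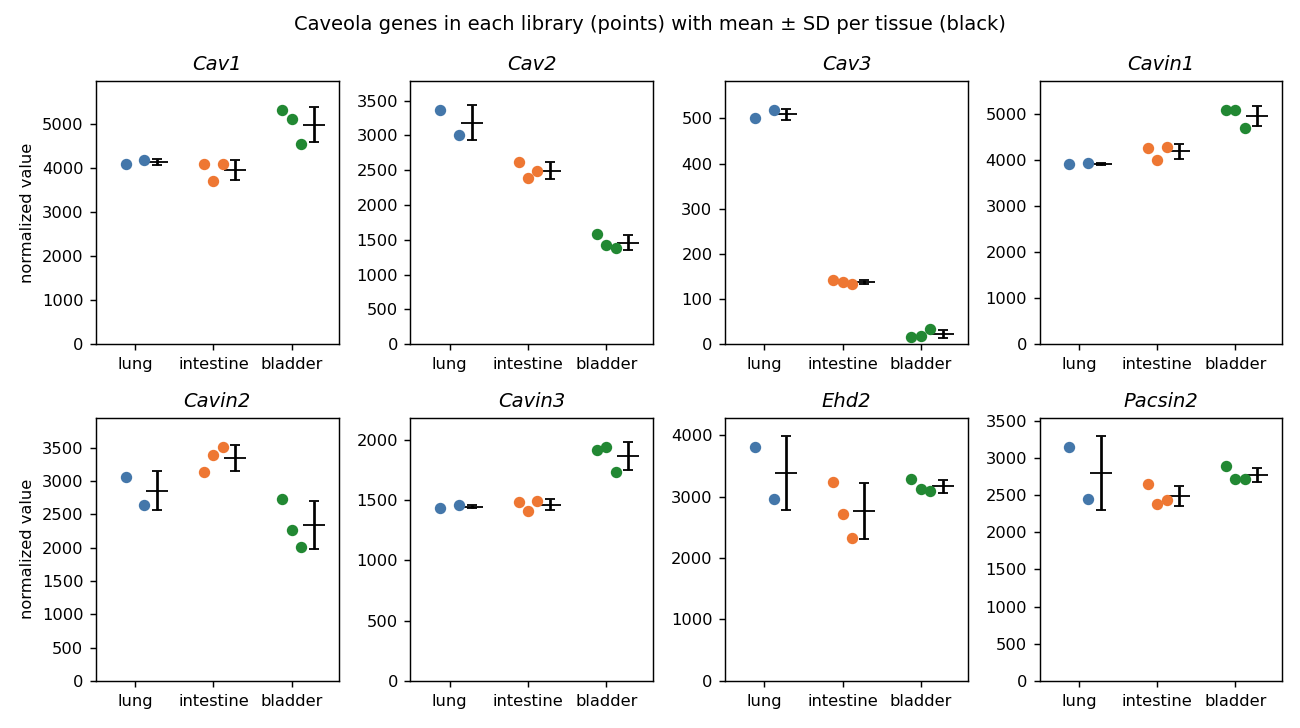
Normalized value (linear axis from 0) of each of the 8 caveola genes in each lung, intestine and bladder library (coloured points), with the mean and SD per tissue in black. Cav2 and Cav3 separate into 3 steps, with Cav3 at 501 and 518 in lung, 133 to 142 in intestine and 16 to 34 in bladder, while the tissues overlap for Ehd2.

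Among the caveolins, Cav2 and Cav1 are neighbours on chromosome 6 (build mm39), on the same strand and 17220 nt apart, and each is the nearest gene of the other. Cav2 lies at chr6:17281184-17289114 and Cav1 at chr6:17306334-17341451, whereas Cav3 lies farther along the chromosome at chr6:112436466-112449833. The 250 bases before the start of each are shown because these genes differ most in their pattern over the tissues, with neighbours that took opposite directions from bladder under the deposited scaling. They are RefSeq sequences of build GRCm38.p6, an older build than that of the table, and all read on the plus strand, at chr6:17306085-17306334 for Cav1, chr6:17280935-17281184 for Cav2 and chr6:112459255-112459504 for Cav3. Capitals mark matches, on either strand, to the TATA box (TATAAA), the CCAAT motif or the GC box (GGGCGG).
Cav1: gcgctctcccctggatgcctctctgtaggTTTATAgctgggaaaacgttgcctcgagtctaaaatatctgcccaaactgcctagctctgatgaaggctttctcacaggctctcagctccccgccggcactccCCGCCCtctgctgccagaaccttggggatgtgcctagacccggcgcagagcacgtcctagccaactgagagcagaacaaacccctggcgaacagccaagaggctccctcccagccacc
Cav2: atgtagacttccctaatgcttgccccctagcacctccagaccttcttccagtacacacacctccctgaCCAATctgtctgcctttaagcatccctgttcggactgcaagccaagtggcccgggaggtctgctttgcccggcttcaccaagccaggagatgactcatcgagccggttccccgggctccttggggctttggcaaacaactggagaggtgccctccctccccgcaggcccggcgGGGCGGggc
Cav3: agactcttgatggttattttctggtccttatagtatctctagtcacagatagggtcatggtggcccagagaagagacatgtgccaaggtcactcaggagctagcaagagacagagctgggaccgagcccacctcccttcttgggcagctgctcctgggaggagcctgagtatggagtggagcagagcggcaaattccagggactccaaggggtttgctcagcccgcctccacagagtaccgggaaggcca
RefSeq lists 2 windows for Cav1, and the one shown is the upstream one. It held TATAAA on the minus strand, 221 to 216 bases before the start, and GGGCGG on the minus strand, 118 to 113 bases before it, and the other window (60.8% G and C) held none of the motifs searched. The Cav2 window held CCAAT, 182 to 178 bases before the start, and GGGCGG, 9 to 4 bases before it, both on the plus strand. None of these letters, nor the CArG box bound by serum response factor, was in the Cav3 window. Of 32851 promoter windows of the same length, 12.4% held TATAAA, 33.8% CCAAT, 32.7% GGGCGG and 1.47% a CArG box, both strands counted. RefSeq windows were matched for 7 of the 8 genes, 11 windows in all with 1 to 3 for each gene, and 0 of the 11 held a CArG box. The windows were 59.6% G and C for Cav1, 62.0% for Cav2 and 56.0% for Cav3, against a median of 52.4% over all windows. A match describes the letters and is not evidence of a bound factor.

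Cav2 had the same order of tissues in every library. Its normalized values were 3361 and 3007 in lung, 2617, 2382 and 2484 in intestine, and 1577, 1427 and 1376 in bladder. The lowest lung library stood above the highest intestine library, and the lowest intestine library above the highest bladder library. Means were 3184 ± 250.3 in lung (SD, n = 2), 2494 ± 118 in intestine and 1460.0 ± 104 in bladder (SD, n = 3 each). The log2 difference was 1.12 (SE 0.09) for lung minus bladder and 0.77 (SE 0.08) for intestine minus bladder, folds of 2.18 and 1.71 (limma, Benjamini-Hochberg adjusted p = 1.15e-05 and 3.15e-05). For lung minus intestine it was 0.35 (SE 0.09, limma adjusted p = 0.0100), and without lung library 1 it was 0.27 with an adjusted p of 0.0511. Without the intensity trend of the model its adjusted p was 0.0514. Both differences from bladder stayed called under all 18 other settings tried, at 1.04 to 1.64 and 0.56 to 1.17.

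Cav3, the muscle caveolin, showed the largest differences of the 8 genes. Its values were 501 and 518 in lung, 142, 137 and 133 in intestine, and 16, 18 and 34 in bladder, a bladder level above the limit that a count of 0 allows (3 reads, or 3.29 to 3.81 in normalized value). The 3 tissues did not overlap and lay several-fold apart. Means were 509.5 ± 12.02 in lung (SD, n = 2), 137 ± 4.51 in intestine and 22.7 ± 9.87 in bladder (SD, n = 3 each). The log2 difference was 4.51 (SE 0.32, adjusted p = 8.46e-06) for lung minus bladder and 2.62 (SE 0.29, adjusted p = 6.09e-05) for intestine minus bladder in limma. Lung exceeded intestine by 1.88 on the log2 scale (SE 0.32, limma adjusted p = 0.00147). Ratios of the means were 22.5, 6.06 and 3.71 for lung over bladder, intestine over bladder and lung over intestine. All 3 calls held in each of the 18 other settings, with ranges of 4.17 to 5.00, 1.82 to 3.00 and 1.85 to 2.35.

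Markers of cardiac and skeletal muscle, where Cav3 is also made, moved with Cav3 between lung and the other tissues. Of 12 such genes tested, 9 were higher and 1 lower in lung than in bladder, beside 19.2% and 21.8% of all genes. Against intestine 7 were higher and 0 lower in lung, beside 15.9% and 23.6% of all genes. The summed level of these markers was 588 and 518 ppm of all values in lung libraries 1 and 2. It was 86.4 to 87.7 ppm in intestine and 117 to 175 ppm in bladder. Myh6, the atrial myosin heavy chain, was at 897 and 279 in the lung libraries, 1 to 3 in intestine and 0 to 3 in bladder. Between the lung libraries Myh6 differed several-fold, while Cav3 stood at 501 and 518 and the summed markers at 588 and 518 ppm. Intestine had more Cav3 than bladder with a lower summed level of these markers. Myh7, the slow myosin heavy chain, was at 7 and 1 in lung, 0, 3 and 22 in intestine and 0 in each bladder library. The part of such RNA in the Cav3 values of lung was not tested.

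Cav1, the caveolin on which the coat is built in most cells, was the member with the highest read density in lung and bladder. Its values were 4082 and 4193 in lung, 4085, 3695 and 4102 in intestine, and 5312, 5104 and 4549 in bladder. Lung lay within the range of intestine but for 1 library, and each bladder library was above all others. Means were 4137.5 ± 78.5 in lung (SD, n = 2), 3961 ± 230.2 in intestine and 4988 ± 394 in bladder (SD, n = 3 each). The log2 difference was -0.27 for lung minus bladder (SE 0.08, limma adjusted p = 0.0230) and -0.33 for intestine minus bladder (SE 0.07, limma adjusted p = 0.00329). Lung minus intestine was 0.06 with a 95% interval of -0.11 to 0.24, but 0.18 and called (adjusted p = 0.0174) with the scaling undone, where the median of all genes was 0.07. The call against lung ended without lung library 1, lung library 2, bladder library 1 or bladder library 2, with limma adjusted p of 0.0820, 0.0606, 0.0740 and 0.0691. It also ended with equal totals, with only lung and bladder in the model, and without the intensity trend (adjusted p = 0.199, 0.0801 and 0.108).

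Other scalings moved Cav1. With the deposited scaling undone it was at 0.25 and 0.06 for the same pairs. Relative to the median of all genes that is -0.23 and -0.39, near the deposited differences by construction. The sign relative to the median turned under quantile normalization: with medians of 0.03 and -0.15 over all genes, Cav1 was at 0.15 and 0.03, or 0.12 and 0.18 relative to them. Cav1 had 1.42 reads per nt in lung, 1.26 in intestine and 1.20 in bladder, and as deposited its differences lay within the interquartile range of the dense genes. The part of read density in these differences was not tested.

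**Figure D2:**
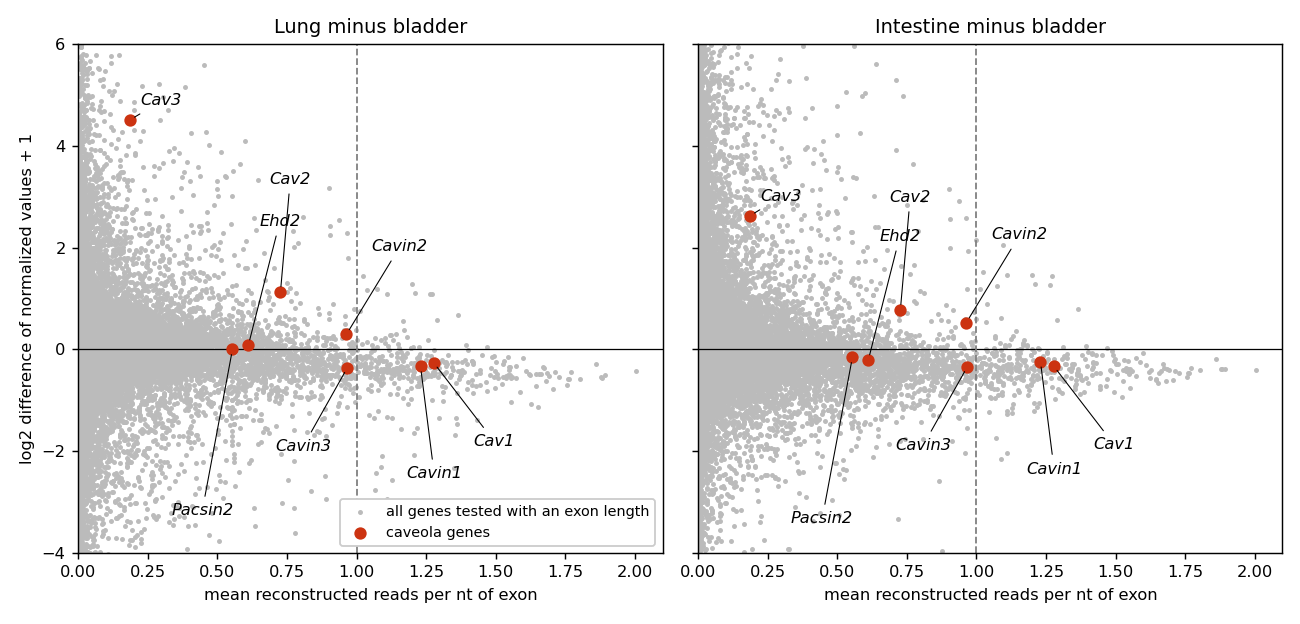
Log2 difference from bladder (vertical axis, drawn from -4 to 6, so genes beyond are not shown) against mean reconstructed reads per nt of exon, for lung minus bladder at left and intestine minus bladder at right. Grey points are all genes tested with an exon length, red points the 8 caveola genes, and the dashed line marks 1 read per nt. To the right of it most genes lie below 0, with medians of -0.42 and -0.40, and Cav1 and Cavin1 lie among them, with a sign that turns under quantile normalization and, through the shift of all genes, with the scaling undone. Cav2 and Cav3 lie at lower density and above 0.

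Of the cavins, Cavin1, the protein on which caveola assembly depends, lies at chr11:100847559-100861713 on the minus strand. Its values were 3896 and 3923 in lung, 4263, 3990 and 4281 in intestine, and 5070, 5070 and 4691 in bladder. The 3 tissues did not overlap, although lung and intestine lay close together. Means were 3909.5 ± 19.1 in lung (SD, n = 2), 4178 ± 163 in intestine and 4944 ± 219 in bladder (SD, n = 3 each). As deposited, the log2 difference of Cavin1 was -0.34 for lung minus bladder (SE 0.06, limma adjusted p = 0.00187) and -0.24 for intestine minus bladder (SE 0.05, adjusted p = 0.00442, or 0.0513 without the intensity trend), whereas it was at 0.05 and 0.12 under quantile normalization. With the scaling undone it was at 0.17 and 0.15. Relative to the median of all genes that is -0.30 and -0.30, again near the deposited differences by construction. Lung minus intestine was -0.10 (limma adjusted p = 0.246). Its read density was 1.29 reads per nt in lung, 1.27 in intestine and 1.15 in bladder. The kit does not mark strand, and 1020 nt of the gene overlap ENSMUSG00000120984 on the other strand, a gene at 302 and 234 in lung, 122 to 146 in intestine and 317 to 392 in bladder.

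Cavin3, which links the coat to protein kinase C signalling, followed Cavin1. It lies at chr7:105129290-105131507 on the minus strand and shares 374 nt with the predicted gene Gm45667, whose mean value was 9.50. Cavin3 was at 1434 and 1456 in lung, 1485, 1411 and 1489 in intestine, and 1915, 1939 and 1728 in bladder. Lung and intestine overlapped, and bladder lay above both. Means were 1445 ± 15.6 in lung (SD, n = 2), 1462 ± 43.9 in intestine and 1861 ± 116 in bladder (SD, n = 3 each). The log2 difference from bladder was -0.36 in lung (SE 0.08, limma adjusted p = 0.00487) and -0.35 in intestine (SE 0.07, limma adjusted p = 0.00240), and it was called lower under the other scalings except with the scaling undone. There it was at 0.15 and 0.05, which is -0.33 and -0.40 relative to the median of all genes, again by construction. Under quantile normalization it was at -0.25 and -0.22, but -0.28 and only -0.07 relative to the medians of all genes. Lung minus intestine was -0.02 (limma adjusted p = 0.889). At 1.03 reads per nt in lung, 0.961 in intestine and 0.930 in bladder, Cavin3 too stood near the dense genes, and its differences lay within their interquartile range.

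Cavin2, the cavin that helps to bend and extend the membrane, took another order. It lies at chr1:51328285-51342119 on the plus strand, and its values were 3057 and 2646 in lung, 3137, 3385 and 3510 in intestine, and 2733, 2270 and 2013 in bladder. Intestine was above every library of the other tissues, and lung overlapped bladder. Means were 2851.5 ± 291 in lung (SD, n = 2), 3344 ± 190 in intestine and 2339 ± 365 in bladder (SD, n = 3 each). Intestine exceeded bladder by 0.53 on the log2 scale (SE 0.11, limma adjusted p = 0.00309), a difference that stayed called at 0.31 to 0.92 in all 18 other settings. For lung minus bladder it was 0.29 with a 95% interval of 0.02 to 0.57 and a limma adjusted p of 0.0870. Without bladder library 1 that difference was 0.41 with an adjusted p of 0.0147, and it was called at 0.44 with equal totals and 0.54 under quantile normalization. With the scaling undone it was 0.81, or 0.33 relative to the median of all genes. Lung minus intestine was -0.23 (95% interval -0.51 to 0.05). Endothelial markers, from a cell type that is also rich in caveolae, were highest in intestine too, at 1221 and 1368 ppm in lung, 2103 to 2272 ppm in intestine and 614 to 835 ppm in bladder. Their part in Cavin2 was not tested.

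At the neck, neither gene passed the test as deposited. Ehd2, an ATPase that forms a ring and holds the caveola at the surface, lies at chr7:15680883-15701492 on the minus strand. Its values were 3809 and 2954 in lung, 3234, 2724 and 2324 in intestine, and 3288, 3125 and 3092 in bladder, so that all 3 tissues overlapped. Log2 differences were 0.08 for lung minus bladder (95% interval -0.23 to 0.40), -0.21 for intestine minus bladder (-0.49 to 0.07) and 0.29 for lung minus intestine (-0.02 to 0.61), with limma adjusted p of 0.683, 0.190 and 0.127. Without intestine library 1 lung minus intestine was 0.41, with an adjusted p of 0.0453. Lung minus bladder was called at 0.41 under quantile normalization. It was 0.59 with the scaling undone, but 0.12 relative to the median of all genes. With low-density genes setting the scaling intestine minus bladder was called at -0.42 and lung minus intestine at 0.46, which is -0.28 and 0.34 relative to the medians of all genes under that scaling. These intervals leave room for differences of the size seen in Cav1, so the data do not show equal levels.

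Pacsin2, an F-BAR protein that bends the membrane during caveola formation, lies at chr15:83259808-83348807 on the minus strand. It was at 3149 and 2442 in lung, 2645, 2382 and 2441 in intestine, and 2887, 2723 and 2721 in bladder. The lung libraries overlapped both other tissues, and the intestine libraries lay below those of bladder. The log2 difference was -0.16 for intestine minus bladder (95% interval -0.37 to 0.05, limma adjusted p = 0.183) and 0.16 for lung minus intestine (-0.08 to 0.39, adjusted p = 0.262), and lung minus bladder had an interval of -0.24 to 0.23. Without lung library 2 lung minus intestine was 0.34 (adjusted p = 0.0138). Without lung library 1 or lung library 2 intestine minus bladder kept its size, with an adjusted p of 0.0422 and 0.0423, and with lung left out altogether 0.0435. Lung minus bladder was 0.51 with the scaling undone, but 0.03 relative to the median of all genes. Low-density scaling called intestine minus bladder at -0.37 and lung minus intestine at 0.32, which is -0.23 and 0.20 relative to its medians of all genes. Lung library 1 was the higher of the pair for both Ehd2 and Pacsin2.

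**Figure D3:**
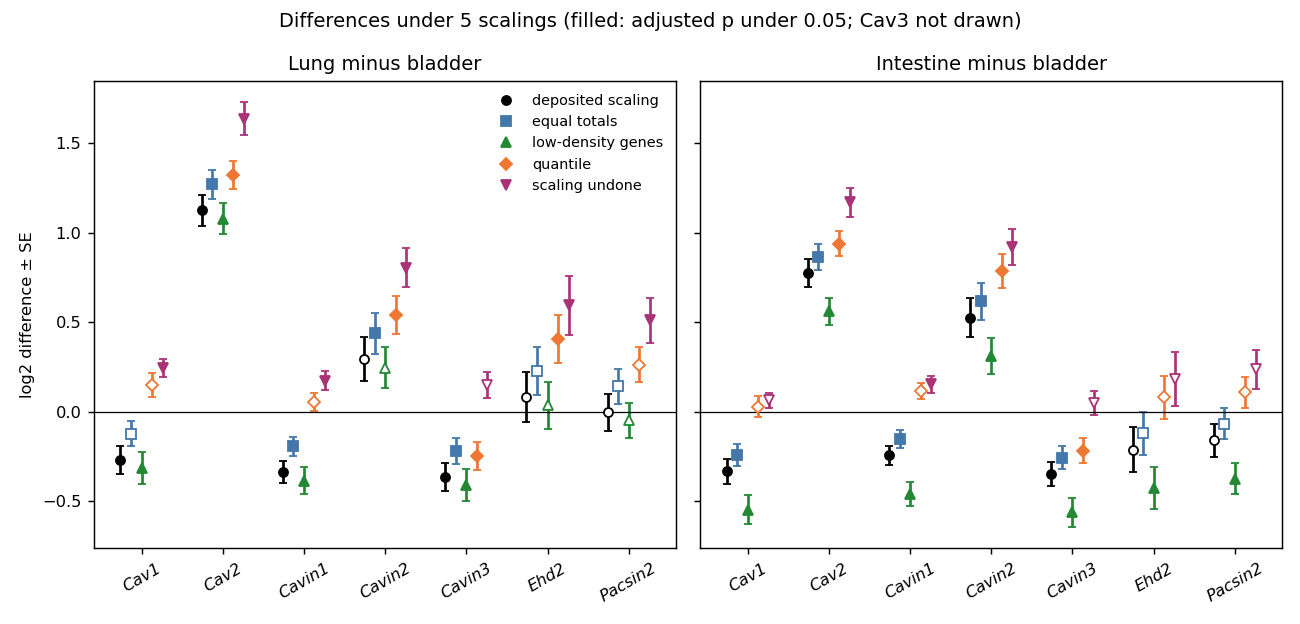
Log2 difference with SE (vertical axis) of 7 caveola genes for lung minus bladder at left and intestine minus bladder at right, under 5 scalings of the same values; filled symbols have an adjusted p under 0.05, and Cav3 is left out because its differences are far larger. Cav2 stays above 0 and called throughout, Cavin2 does so for intestine, and Cav1 and Cavin1 cross 0 under quantile normalization. With the scaling undone all genes shift up, by a median of 0.48 in lung and 0.45 in intestine, and Cavin3 then crosses 0 too.

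Per length of exon, the coat genes were among the densest in the table. Cav1 ranked 120 in lung, 180 in intestine and 185 in bladder of 20958 genes with a length, with 0.568%, 0.854% and 0.878% of genes above it. Cavin1 ranked 201, 171 and 218 in the same tissues. In lung the order of mean read density was Cav1 at 1.42 reads per nt, Cavin1 at 1.29, Cav2 at 1.13, Cavin2 at 1.11, Cavin3 at 1.03, Ehd2 at 0.786, Pacsin2 at 0.678 and Cav3 at 0.522. In intestine Cavin1 at 1.27, Cav1 at 1.26 and Cavin2 at 1.20 led, Cav2 stood at 0.818, and Cav3 came last at 0.130. In bladder Cav1 at 1.20 and Cavin1 at 1.15 led, Cavin2 stood at 0.633 and Cav2 at 0.364, and Cav3 came last at 0.0167. The highest density of any gene in a library was 1.93 to 2.47 reads per nt, so the leading members stood near the top of the scale that these libraries reached. Dense genes moved together, as given above, and whether the order of the densest members is that of their RNA levels was not tested. Neighbours such as Cav2 and Cavin2 in lung, or Cav1 and Cavin1 in intestine, overlapped between libraries. Cav3 went through the widest range, with 9.47% of genes above it in lung, 33.5% in intestine and 55.7% in bladder.

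**Figure D4:**
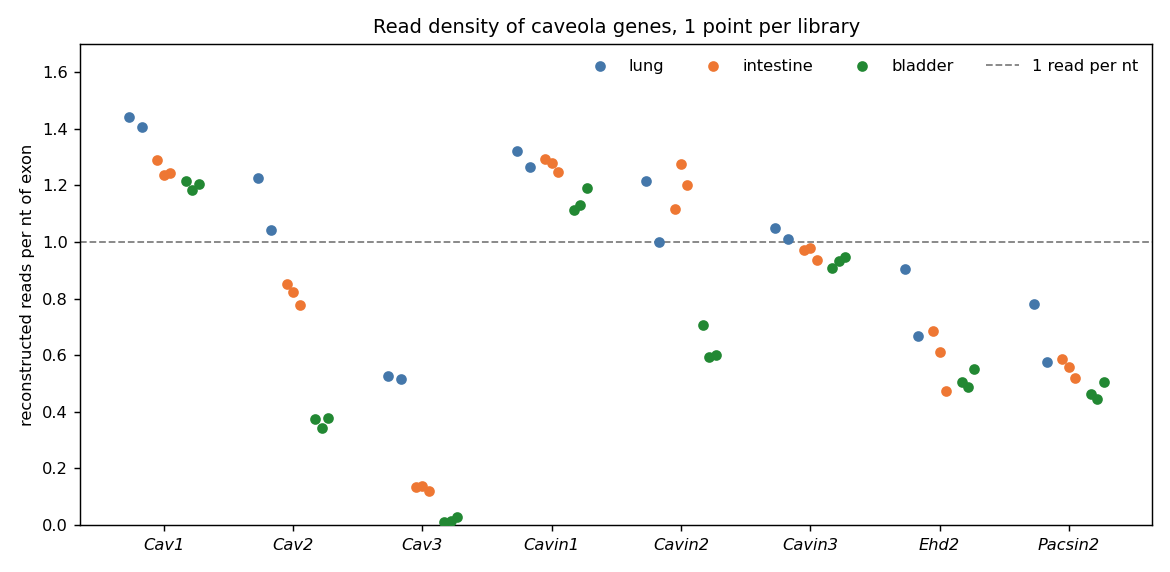
Reconstructed reads per nt of exon (linear axis from 0) of the 8 caveola genes, 1 point per library, for lung, intestine and bladder; the dashed line marks 1 read per nt. Cav1 and Cavin1 are above the line in every library, Cav2 is above it only in lung, Cavin2 is at or above it in lung and intestine, and Cav3 stays below it.

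Ratios of 2 genes within a library do not depend on the constant by which it was scaled, but they are not free of read density where one gene is denser than the other, as Cav1 and Cavin1 are than Cav2 and Cavin2 in bladder. The part of density in them was not tested. In all, 6 ratios were compared over the 3 tissues with an exact permutation test over 560 assignments, whose smallest possible p is 0.00357. Cav2 to Cav1 was 0.823 and 0.717 in lung, 0.641, 0.645 and 0.606 in intestine, and 0.297, 0.280 and 0.302 in bladder. The tissues did not overlap, and bladder had the least Cav2 for its Cav1. The exact p was 0.00357, the smallest possible, or 0.0214 after Benjamini-Hochberg over the 6 ratios, with a ratio 2.62-fold higher in lung than in bladder and 2.15-fold higher in intestine than in bladder. Cavin2 to Cavin1 averaged 0.730 ± 0.0779 in lung (SD, n = 2), 0.801 ± 0.0585 in intestine and 0.472 ± 0.0588 in bladder (SD, n = 3 each), with an exact p of 0.0143 and an adjusted p of 0.0286. Bladder lay below both other tissues. Cavin3 to Cavin1 varied within a narrow band, at 0.370 in lung, 0.350 in intestine and 0.376 in bladder on average, and still differed (exact permutation p = 0.0107, adjusted p = 0.0286).

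The remaining ratios did not pass after adjustment. Cavin1 to Cav1 averaged 0.945 in lung, 1.06 in intestine and 0.993 in bladder, with an exact p of 0.0393 and an adjusted p of 0.0589. Ehd2 to Cav1 averaged 0.819, 0.698 and 0.637 in the same tissues (exact permutation, adjusted p = 0.356), and Pacsin2 to Ehd2 averaged 0.827, 0.914 and 0.876 (adjusted p = 0.454). Pacsin2 to Ehd2 was 0.827 in both lung libraries although each gene differed between them. With 1 library left out, the smallest possible p times 6 is 0.0571, or 0.0857 without a lung library, so a ratio could then pass only together with others.

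**Figure D5:**
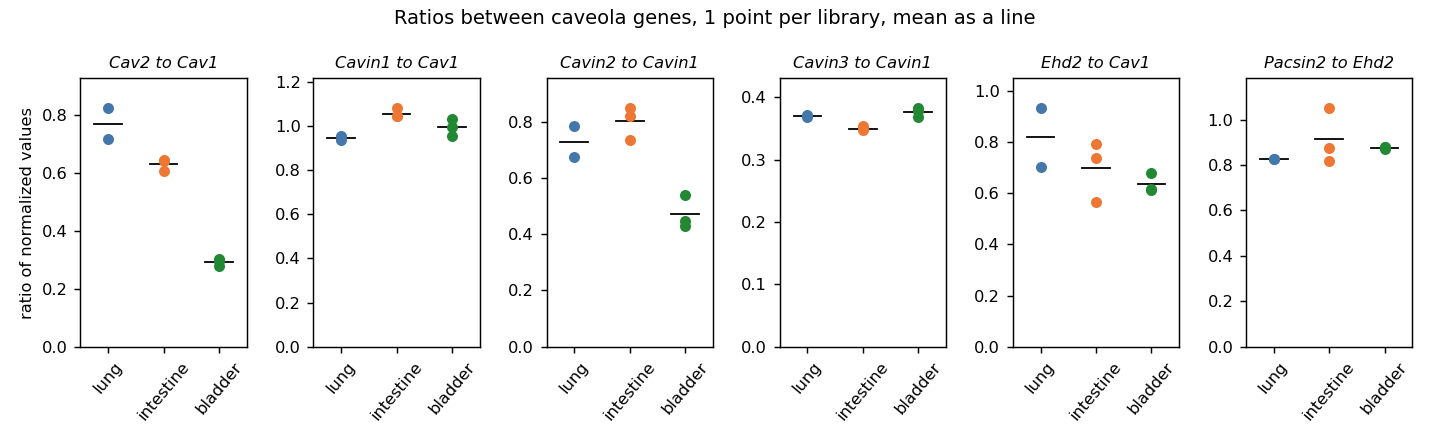
Ratio of normalized values (linear axes from 0) for 6 pairs of caveola genes, 1 point per library with the tissue mean as a line, for lung, intestine and bladder. Cav2 to Cav1 and Cavin2 to Cavin1 are lowest in bladder, at means of 0.293 and 0.472.

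The genes whose pattern over the 8 libraries was most like that of a member were ranked by Pearson's r of log2(value + 1) among 11668 genes with a mean value of at least 100. The 8 libraries fall in 3 tissues and share scaling, so a high r describes mostly the order of tissues. Cav2 was closest to Adgre5 (r = 0.994), which encodes the adhesion receptor CD97, and to Serpinb6b (0.994) and Galnt16 (0.993). Cav3 was closest to Nnat (0.991), Haus8 (0.991) and Dzip1l (0.989). Cavin2 was closest to Sp4 (0.986), Etv6 (0.982) and Lcorl (0.976), all 3 encoding transcription regulators. Cav1 was closest to Rnf139 (0.989), Pnrc2 (0.988) and Vcp (0.984). For Cavin1 they were Fos (0.998), Cnbp (0.997) and Egr1 (0.996), and for Cavin3 Ecm1 (0.997), Axl (0.996) and Ccn1 (0.996). These last 6 genes were themselves dense, at 1.01 to 2.01 reads per nt, and the part of density in the likeness was not tested.

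A list of 18 further genes linked to caveolae moved in both directions. Not all are of the coat or neck, since Src, Fyn, Abl1, Flna and Filip1l are among them. Of all genes, 19.2% were higher and 21.8% lower in lung than in bladder, and 28.7% and 23.3% in intestine than in bladder. For lung minus intestine the shares were 15.9% and 23.6%. These shares apply to each list below as well. Counts of a list with the scaling undone include the shift of all genes toward higher values, by which the genes called higher in lung than in bladder went to 7949, against 3466 as deposited. Against bladder, 8 were higher and 4 lower in lung, or 13 and 3 with the scaling undone, and 9 were higher and 3 lower in intestine. The median log2 differences were 0.14 and 0.30, against 0 and 0.06 over all genes. Cavin4, of this list, is counted as higher in lung than in bladder and than in intestine. It passed the filter on low values only through the lung libraries, so its part in those counts is no support for a difference. Filip1l, which encodes a filamin-interacting protein, was at 4069 ± 223 in lung (SD, n = 2), 3640 ± 296 in intestine and 739 ± 108 in bladder (SD, n = 3 each). Flna, the actin cross-linker filamin A that tethers caveolae to stress fibres, averaged 13640 in lung, 14901 in intestine and 8590 in bladder. Dnm1, a dynamin that severs necks of budding membrane and is best known from neurons, went the other way, at 771.5 in lung, 1572 in intestine and 4963 in bladder, with log2 differences from bladder of -2.70 and -1.66 (limma adjusted p = 5.09e-07 and 2.10e-06). Between lung and intestine 3 of the 18 were higher and 7 lower in lung, which other scalings moved to 4 and 6, 5 and 7, 4 and 5 or 6 and 6, and without intestine library 2 only 1 was higher.

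Channels, pumps and enzymes that smooth muscle keeps at caveolae were called higher than in bladder more often than lower. Beside them, 19.2% of all genes were higher and 21.8% lower in lung, and 28.7% and 23.3% in intestine. Their counts were not tested against these shares. Of 20 tested, 8 were higher and 4 lower in lung than in bladder (10 and 1 with the scaling undone, 10 and 3 with equal totals), and 13 were higher and 3 lower in intestine than in bladder (15 and 0 with the scaling undone). Their median log2 differences were 0.30 and 1.37. Adcy5, an adenylyl cyclase, was at 4425 and 2652 in lung, 2703 to 3086 in intestine and 198 to 259 in bladder. Kcnj8, a subunit of the ATP-sensitive potassium channel and also a pericyte marker, averaged 1990 in lung, 1138 in intestine and 190.3 in bladder. Between lung and intestine 2 were higher and 7 lower in lung.

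Of 18 receptors and surface proteins linked to caveolae, 6 were higher and 5 lower in lung than in bladder, beside 19.2% and 21.8% of all genes. The counts were 11 and 3 with the scaling undone and 8 and 4 under quantile normalization. In intestine 8 were higher and 4 lower than in bladder, beside 28.7% and 23.3% of all genes. They were 11 and 1 with the scaling undone and 5 and 7 where low-density genes set the scaling. Ednra, the endothelin A receptor, averaged 3186.5 in lung, 3002 in intestine and 593.7 in bladder. Aqp1, a water channel also found in endothelium, was highest in intestine, at 1366 in lung, 2948 in intestine and 957.7 in bladder. Cd44, the hyaluronan receptor, was highest in lung, at 2667, 1462 and 1125 in the same tissues. Lung minus intestine gave 3 higher and 6 lower, or 4 and 5 with the scaling undone and 6 and 5 where low-density genes set the scaling, and 5 were higher without lung library 2.

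Cholesterol is a main lipid of caveolae, and genes for its synthesis and uptake were more often higher than lower in lung. Over all genes 19.2% were higher and 21.8% lower for lung minus bladder, and 15.9% and 23.6% for lung minus intestine. For intestine minus bladder it was 28.7% and 23.3%. The counts below were not tested against these shares. Of 21 tested, 14 were higher and 2 lower in lung than in bladder, and 8 were higher and 1 lower in lung than in intestine (14 and 0 under quantile normalization, 4 and 0 without lung library 2). In intestine against bladder 10 were higher and 5 lower, or 14 and 1 with the scaling undone and 6 and 6 with low-density genes setting the scaling. Without intestine library 1 only 6 were higher there. The median log2 differences were 0.61 for lung minus bladder, 0.28 for intestine minus bladder and 0.42 between lung and intestine. Fdft1, squalene synthase, averaged 848.5 in lung, 630.7 in intestine and 260.0 in bladder, and Pmvk, a mevalonate pathway kinase, 737, 518 and 304.3 in the same order of tissues. Insig1, which restrains the pathway, went the other way, at 482 in lung, 474 in intestine and 1072 in bladder.

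Lists of other membrane domains and of clathrin coats held more genes lower than higher against bladder as deposited. Over all genes lower also exceeded higher for lung minus bladder, at 21.8% against 19.2%. For intestine minus bladder 23.3% of all genes were lower and 28.7% higher. For lung minus intestine 15.9% were higher and 23.6% lower. The counts of these lists were not tested against those shares. With the scaling undone each list held more higher than lower, under the shift of all genes given above. Of 8 flotillin and stomatin raft genes, 1 was higher and 4 lower in lung than in bladder, and 2 were higher and 4 lower in intestine, but 4 and 2, and 2 and 1, with the scaling undone. Lung minus bladder gave 2 and 4 with equal totals and 3 and 4 under quantile normalization, with 2 higher without lung library 1, and lung minus intestine gave 3 and 3. Stom, stomatin, averaged 3284.5 in lung, 3587 in intestine and 954.3 in bladder, Mal2 34, 540.0 and 77.7, and Mal 25, 94 and 395. Of 17 genes for BAR and EHD-binding proteins that curve membranes, 1 was higher and 8 lower in lung than in bladder (4 and 2 with the scaling undone, 2 and 7 with equal totals, 2 and 5 under quantile normalization), and 2 were higher and 8 lower in intestine (5 and 2 undone). Lung minus intestine gave 1 and 4, or 5 and 3, 4 and 4, 3 and 4 or 6 and 4 under other scalings, and 4, 0 and 2 were higher without lung library 1, intestine library 2 and intestine library 3. For lung minus bladder 2 were higher without lung library 1 and 5 lower without bladder library 2. Among them Mtss1, an I-BAR protein, was higher outside bladder, at 344.5 in lung, 395 in intestine and 135.7 in bladder, whereas Baiap2 averaged 475, 487.3 and 1532. Sh3gl2, endophilin A1, was low in lung, at 14.5 in lung, 299.3 in intestine and 433.7 in bladder. Of 15 clathrin genes, 2 were higher and 4 lower in lung than in bladder, and 1 was higher and 7 lower in intestine, but 9 and 1, and 4 and 1, with the scaling undone. Equal totals and quantile normalization each gave 2 and 6 for intestine, and lung minus intestine gave 2 and 1, or 4 and 1 or 2 and 3 under other scalings. Without lung library 1 it gave 5 and 5, and without intestine library 3 there were 2 lower. The clathrin adaptor gene Ap2a2 averaged 2127 in lung, 2468 in intestine and 3821 in bladder, and Synj2, a phosphatase that helps to uncoat vesicles, 713.5, 594.7 and 1285. Picalm, a clathrin assembly protein, was highest in lung, at 1867, 927.3 and 1313.

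Markers of other cells were read in every tissue. Of all genes, 19.2% were higher and 21.8% lower in lung than in bladder, and 28.7% and 23.3% in intestine than in bladder. In lung 23.6% were lower than in intestine. Marker counts were not tested against these shares. Endothelial markers, of which 16 were tested, were higher in lung than in bladder for 10 and lower for 2, higher in intestine than in bladder for 15 and lower for 1, and lower in lung than in intestine for 11. Of 12 vascular smooth muscle and pericyte markers, 9 were higher and 0 lower in lung than in bladder, and 9 were higher and 1 lower in intestine than in bladder, with sums of 2912, 2906 and 1227 ppm in lung, intestine and bladder. All 14 fibroblast markers were lower in lung and in intestine than in bladder, with sums of 4568, 5398 and 7544 ppm, and 7 of them were dense genes of at least 1 read per nt. Of 15 smooth muscle markers, 8 were higher and 1 lower in lung than in bladder and 8 were higher and 3 lower in intestine, with sums of 4127, 3813 and 2297 ppm. With the scaling undone it was 14 and 0 in both pairs, and equal totals, quantile normalization and scaling from low-density genes gave 8 and 0, 11 and 0 and 7 and 2 for lung. For intestine equal totals gave 9 and 0 and quantile normalization 10 and 1. Without bladder library 1, bladder library 2, intestine library 1 or intestine library 2 no smooth muscle marker was called lower in intestine, and without intestine library 3 there was 1. In lung none was lower without bladder library 1 or lung library 1, and 2 were without bladder library 3. The single vascular smooth muscle or pericyte marker lower in intestine was lost without bladder library 2 or 3 or intestine library 2 or 3, and 2 markers of that list were lower in lung without lung library 1. The single endothelial marker lower in intestine was lost without bladder library 1 or 2 or intestine library 1 or 3. Against bladder, lung and intestine had more Cav2 and Cav3, higher vascular smooth muscle and smooth muscle sums and a lower fibroblast sum. Between lung and intestine the vascular smooth muscle and pericyte sums overlapped, while Cav2 and Cav3 were higher in lung. These sums were 3074 and 2750 ppm in lung and 2858 to 2992 ppm in intestine. The part of cell makeup in any member was not tested.

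Markers of other cells, some of which are known to make caveolins, gave smaller sums, from lists of fewer genes. Adipocyte markers held 287 ppm in lung, 283 in intestine and 238 in bladder, with 3 of 6 higher and 2 lower in lung than in bladder, and Adipoq was at 0 in every lung and intestine library and at 15, 5 and 0 in bladder. Markers of alveolar type 1 cells, the thin lung epithelium that is rich in Cav1, held 327, 425 and 427 ppm, with 5 of 10 higher and 4 lower in lung than in bladder (6 and 2 with the scaling undone). Their gene Ager was at 394 and 455 in lung, 77 to 103 in intestine and 63 to 115 in bladder. Of 10 epithelial markers, 10 were lower in lung than in bladder. In intestine 8 were higher and 1 lower. Of 10 leukocyte markers 2 were higher and 6 lower in lung than in bladder, and as many in intestine, with 1 higher in lung without lung library 2. Of 8 mesothelial markers 6 were lower in lung than in bladder. All 10 enteric neuron and glia markers were higher in intestine than in bladder. Epithelial markers held 81.6 ppm in lung, 1484 in intestine and 468 in bladder, mesothelial markers 93.0, 339.7 and 391, leukocyte markers 217, 172 and 492, and enteric neuron and glia markers 109, 246 and 49.3.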

How the data were processed

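The authors deposited whole-number score values per gene and library, which by their spacing are read counts times a constant per library, rounded. Tools in the submitters' processing notes, listed there with no role, are DESeq2 1.36.0, featureCounts 2.0.4, Picard 3.0.0, STAR 2.7.10a and Trimmomatic 0.39, and the build is mm39. The strand setting, annotation and filters were not given in the sources. Per the labels' protocols, at most 10 ng of RNA entered the SMART-Seq v4 kit, which does not mark strand.

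The value of 1 read was estimated from the spacing (0.822 to 1.2685 by library) and gave reads for depth and density. In simulated libraries these reads were within 1 read of the truth. That check covered only values lower than those of every member but Cav3. Exon lengths were from GENCODE M21 (96.8% of genes). The filter (a value of 10 or more in 2 or more libraries) left 18097 genes and removed 3552. They were tested with limma 3.58.1 in R 4.3.3, with an intensity trend, on log2(value + 1), with all 8 libraries in 1 fit and Benjamini-Hochberg adjustment. The script was tested on simulated data. Fold changes on this scale understate low genes. Limits from a count of 0 cover counting error alone, since amplified reads are not independent molecules. Alternatives were other scalings, pseudocount, filter, model and left-out libraries. Promoter windows were from RefSeq.

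The 8 genes, the lists and the tests were chosen with earlier results of these data known. Named genes are the members, up to 3 genes of smallest F test p in each pathway list, the first 2 of each cell type list, and the 3 genes most correlated with each member past the F test. Some of those so chosen are given only in sums or are not reported here.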

Additional observations from a re-analysis of the deposited data

How the results depend on the processing

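The calls of Cav2 and Cav3 against bladder and of Cavin2 for intestine minus bladder held in all 18 alternatives. With the deposited scaling undone, 7 members were higher and 0 lower for lung minus bladder, 0 were lower for intestine minus bladder, and the counts of all genes were 7949 higher and 1908 lower for lung minus bladder and 8320 and 1934 for intestine minus bladder, against 3466 and 3952 and 5185 and 4210 as deposited. Quantile normalization gave 4 members higher and 1 lower for lung minus bladder, 1 lower for intestine minus bladder, and 5172 genes higher in lung than in intestine, against 2882. Scaling from genes of low read density gave 5 members lower for intestine minus bladder, with 4 members and 4504 genes higher in lung than in intestine. Without the intensity trend 1 member was higher for lung minus intestine. At 9.72 to 13.62 M reads, depth limited only Cav3 in bladder among the members, at 16 to 34 in normalized value.

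Undoing the scaling moved the median of all genes to 0.48 for lung minus bladder and 0.45 for intestine minus bladder, against 0 and 0.06 as deposited. By that shift it turned the sign for lung minus bladder of Cav1 (0.25), Cavin1 (0.17), Cavin3 (0.15), Pacsin2 (0.51), Ccn1 (0.0773), Axl (0.0121), Cnbp (0.0638), Vcp (0.25), Pnrc2 (0.36), Ecm1 (0.0164) and Rnf139 (0.27), and for intestine minus bladder of Cav1 (0.0638), Cavin1 (0.15), Cavin3 (0.0486), Egr1 (0.0065), Cnbp (0.0504), Vcp (0.14), Pnrc2 (0.21) and Rnf139 (0.0701). Quantile normalization turned Cav1 (0.15 and 0.0298), Cavin1 (0.0548 and 0.12) and Axl (0.0250 and 0.0272) for the same pairs and Ager (-0.78) for intestine minus bladder. The cause under quantile normalization was not tested.

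Leaving out each library in turn gave 2 to 3 members higher and 2 to 3 lower for lung minus bladder, 3 higher and 3 to 4 lower for intestine minus bladder, and 1 to 3 higher in lung than in intestine. Adjusted p over the 6 ratios ranged from 0.0190 to 0.0857 for Cav2 to Cav1, 0.0190 to 0.107 for Cavin1 to Cav1, 0.0429 to 0.107 for Cavin2 to Cavin1, 0.0190 to 0.0857 for Cavin3 to Cavin1, 0.162 to 0.671 for Ehd2 to Cav1 and 0.0429 to 0.671 for Pacsin2 to Ehd2.

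With the replicate number as a block, members called were the same in number, at 2 higher and 3 lower for lung minus bladder, 3 and 3 for intestine minus bladder, 2 and 0 in lung against intestine and 6 in the F test. Deviations of same-numbered libraries from their tissue means correlated at -0.026 to 0.058. With so few libraries in each mean, this cannot show whether same-numbered libraries share an animal or a batch.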

Other observations

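Some relatives and neighbours of these genes are given here after their values were seen. Cavin4, the cavin of heart and skeletal muscle, was at 12 and 14 in lung, 4, 0 and 0 in intestine, and 0, 3 and 2 in bladder, so it was near the limit of a count of 0 outside lung. It passed the filter on low values only through the lung libraries, where it was highest, so no test of it by itself is given. It is among the genes counted in the list of further caveola genes above. Oxtr, the oxytocin receptor gene next to Cav3, lies 811 nt away on the other strand and was lowest where Cav3 was highest, at 4 and 7 in lung, 121, 115 and 38 in intestine, and 49, 53 and 47 in bladder.

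Ehd4, a relative of Ehd2, was at 3977 and 3220 in lung, 2710 to 2929 in intestine and 1354 to 1757 in bladder, with log2 differences from bladder of 1.15 and 0.79 (limma adjusted p = 0.000110 and 0.000339). Ehd3 was highest in intestine, at 1133 and 872 in lung, 1542 to 1888 in intestine and 445 to 553 in bladder. Ehd1 passed the test in no pair, at 2243 and 2573 in lung, 2519 to 2677 in intestine and 2372 to 2445 in bladder. Nostrin, which encodes an F-BAR protein that binds endothelial nitric oxide synthase and caveolin, was at 194 and 266 in lung, 266 to 340 in intestine and 15 to 41 in bladder.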
